A study of Mus musculus with 50 samples.

Results

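The genotype difference at 1 h was measured in 15 of the 50 libraries of the series, 9 from Nrf2 -/- cells and 6 from wild-type (WT) cells, and the other 35 libraries were taken at 8, 24 or 48 h. The libraries were chosen by the hour in their labels. All came from developing oligodendrocytes: progenitors were immunopanned from the cortices of 6-day-old C57BL/6 pups, grown in proliferation medium over passages, and moved to differentiation for 12 to 14 h before plates were assigned to a treatment. The tissue label reads whole brain, whereas the growth protocol names the cortex. Total RNA was sequenced, and 33003667 to 37257674 reads per library were assigned to genes.

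There were 6 groups at 1 h. Nrf2 -/- cells, homozygous for a null allele of the gene that encodes NRF2, were untreated (3 libraries), given interferon gamma (IFN-γ) at 200 U/ml (3 libraries) or given thapsigargin, labelled at 200 µM (3 libraries). WT cells received the same 3 treatments with 2 libraries each. The null allele is present in every cell of the mutant cultures, so a difference can date from any time before the treatment. Nothing in the labels says whether replicates came from separate cultures. Within each genotype, levels of sex-linked transcripts went with the replicate number in all 3 treatments, so same-numbered libraries may share a source. The main fit counts the 15 libraries as independent, and its p-values reflect only library-to-library spread.

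NRF2, encoded by Nfe2l2, is a transcription factor that KEAP1 holds at a low level by presenting it for degradation. Oxidants and electrophiles release it, and with small MAF partners it then binds antioxidant response elements and drives genes for glutathione synthesis, NADPH supply and detoxification. IFN-γ is a cytokine of T cells and natural killer cells, thapsigargin blocks the SERCA pump that fills the endoplasmic reticulum with calcium, and both stress oligodendrocytes, which take on a high secretory and lipid load as they mature from dividing progenitors. The genotype difference was fitted across the 3 treatments, with treatment as a term, by edgeR's quasi-likelihood test. Levels are CPM, a gene's count scaled to one fixed library total, folds are log2 values of Nrf2 -/- over WT with the standard error (SE), and a gene was called at a Benjamini-Hochberg adjusted p under 0.05.

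Nfe2l2 (ENSMUSG00000015839.6, minus strand of chromosome 2, 75675513 to 75704641 on GRCm38) was at 0.103 CPM in the lowest Nrf2 -/- library, 0.285 at the median and 0.668 in the highest, against 7.77, 9.31 and 11.01 CPM in WT libraries. The groups did not overlap, and the raw counts were 4 to 23 in Nrf2 -/- libraries and 248 to 375 in WT libraries. Its fold was -4.89 ± 0.16 (SE; edgeR adjusted p = 4.59e-15). The difference was present in each treatment, at -4.96 ± 0.22 in untreated cells, -5.88 ± 0.24 with IFN-γ and -4.30 ± 0.19 with thapsigargin (SE; edgeR adjusted p = 1.15e-11, 2.75e-12 and 1.66e-11). Transcript estimates still placed reads on the protein-coding transcript Nfe2l2-201, with a median of 37 estimated counts in Nrf2 -/- libraries and 338 in WT libraries. Every library at 1 h therefore carried the Nfe2l2 level that its genotype label calls for.

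The 2 genotypes also differed in sex-linked transcripts. Xist, the RNA that silences one X chromosome in female cells, was at 441 to 695 CPM in replicates 1 and 3 of each Nrf2 -/- group and at 5.45 to 8.66 CPM in replicate 2 of each, against 0.374 to 5.12 CPM in the 6 WT libraries. The Y-linked RNA helicase gene Ddx3y ran the other way, at 0.028 to 1.48 CPM in the 6 high-Xist Nrf2 -/- libraries and at 112 to 116 CPM in the other 3, against 106 to 124 CPM in WT libraries. Sex composition, or the set of cultures it may mark, thus moved with genotype in 6 of 9 Nrf2 -/- libraries and in 0 of 6 WT libraries. Leading results are therefore given for all 15 libraries and for the 3 low-Xist Nrf2 -/- libraries against the 6 WT libraries; the part that sex composition has in them was not tested further. The second principal component (13.6% of the variance) placed the high-Xist Nrf2 -/- libraries at 11.7 to 20.4, the low-Xist ones at -5.85 to -4.10 and WT libraries at -20.8 to -8.47.

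**Figure D1:**
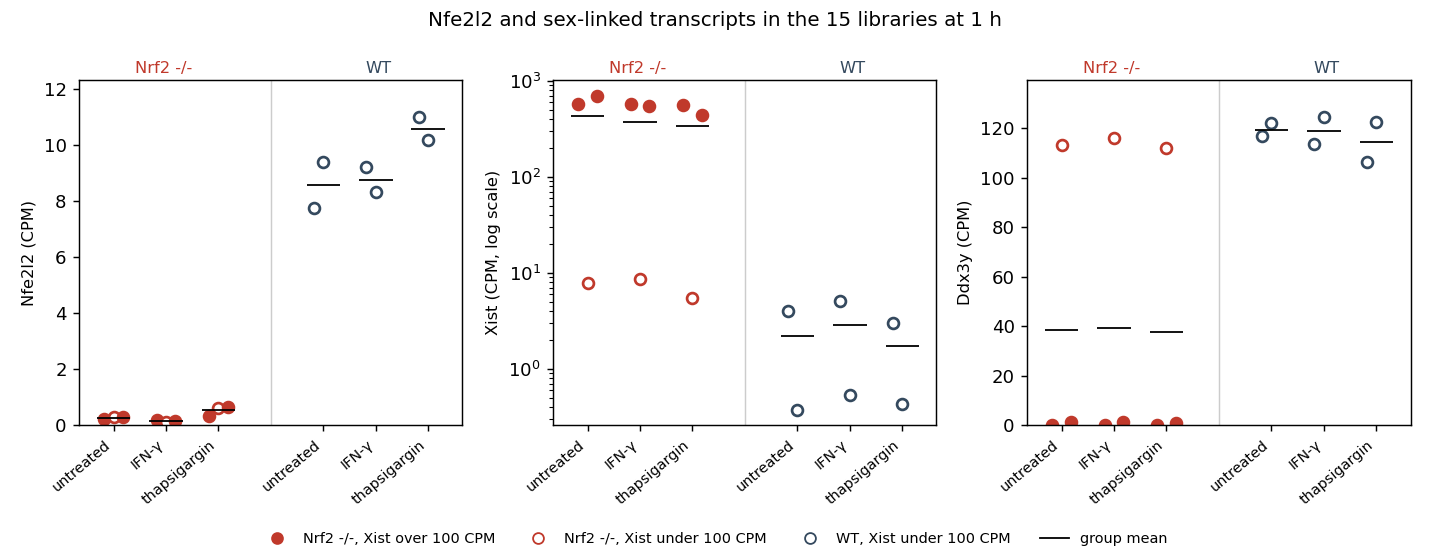
Levels of Nfe2l2, Xist (log scale) and Ddx3y in CPM by genotype and treatment, with 1 point per library, filled where Xist was over 100 CPM, and a line at each group mean. All 9 Nrf2 -/- libraries are at 0.668 CPM of Nfe2l2 or below and all WT libraries at 7.77 or above, while 6 Nrf2 -/- libraries and no WT library are high in Xist.

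Across treatments the leading pattern was a higher level of cell-cycle transcripts in Nrf2 -/- cells, together with lower levels of several genes of the differentiating oligodendrocyte. Of 15375 genes tested, 1546 (10.1%) were called, 681 (4.43%) higher and 865 (5.63%) lower in Nrf2 -/- cells. The differences were small. The median size of a called fold was 0.227, 1453 of the called genes were under 0.5, and 10 were at 1 or more. The levels of the 9 and 6 libraries did not overlap for 86 called genes (0.559% of those tested), 49 higher and 37 lower. Scaled by library totals in place of TMM factors, 1344 genes were called with 1118 higher and 226 lower, so 83.2% of calls were higher against 44% with TMM factors; the median fold of all genes moved to 0.0596, from 0.00103 with TMM factors.

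The number of calls depended on the high-Xist libraries and on single WT libraries. With a term for high Xist 17 genes were called (0.111%), 14 of them among the 1546, and without the 6 high-Xist libraries 6 genes were called (0.0384%), namely Nfe2l2, Gng3, Aldoc, Eps8l1, Dynlt1b and Tmem181b-ps. In both fits the genotype difference rests on the 3 low-Xist Nrf2 -/- libraries. The part that this smaller number of libraries has in the fall in calls was not tested. All 1546 called genes had the same sign in the low-Xist comparison, which shares its libraries with the full one and so is no independent evidence. Leaving out the second WT library of the thapsigargin, untreated or IFN-γ group left 694, 848 and 895 calls.

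All 36 genes of the G2 and mitosis list were measured, and 32 were higher in Nrf2 -/- cells and 0 lower, beside 4.43% higher among all genes. Their median fold was 0.428, against 0.00103 over all tested genes. Their summed level was 2702, 2822 and 2882 CPM in untreated Nrf2 -/- libraries, against 2039 and 1994 CPM in untreated WT libraries. With IFN-γ the sums were 2781, 2121 and 3074 CPM in Nrf2 -/- libraries, against 2369 and 1810 CPM in WT libraries. With thapsigargin they were 2657, 2260 and 2874 CPM in Nrf2 -/- libraries, against 2054 and 1677 CPM in WT libraries. The groups were apart in untreated and in thapsigargin-treated cells, and with IFN-γ the low-Xist Nrf2 -/- library lay below 1 WT library. In the low-Xist comparison the median was 0.277 with 0 of 36 genes called, and with the high-Xist term it was 0.277 with 1 called. With the Xist level as a covariate it was 0.177 with 0 called. With counts summed over treatments per replicate number, which leaves 3 Nrf2 -/- and 2 WT sums, the median was 0.426 with 10 of 36 called. In bulk RNA, a larger share of dividing cells and more of these transcripts per dividing cell cannot be told apart.

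Spc25, a subunit of the NDC80 kinetochore complex, had 23.5 CPM in the lowest Nrf2 -/- library, 30.5 at the median and 33.8 in the highest, against 16.6, 17.6 and 22.9 CPM in WT libraries. The groups did not overlap, and its fold was 0.64 ± 0.08 (SE; edgeR adjusted p = 0.00068). Spc25 also lies 6.47 Mb from Nfe2l2 on chromosome 2. Ttk, the spindle checkpoint kinase MPS1, had 18.9, 24.2 and 27.4 CPM in Nrf2 -/- libraries (lowest, median, highest), against 14.98, 16.7 and 18.8 CPM in WT libraries. These groups did not overlap either, and the fold was 0.51 ± 0.07 (SE; edgeR adjusted p = 0.000873). Birc5, which encodes survivin of the chromosomal passenger complex, had a fold of 0.48 ± 0.09 (SE; edgeR adjusted p = 0.00472), with medians of 32.7 CPM in Nrf2 -/- and 23.6 CPM in WT libraries and a slight overlap of the ranges. Ckap2, a spindle microtubule protein, had a fold of 0.31 ± 0.05 (SE; edgeR adjusted p = 0.00287). Without the high-Xist libraries the folds were 0.48 for Spc25, 0.38 for Ttk, 0.33 for Birc5 and 0.17 for Ckap2, with edgeR adjusted p of 0.139, 0.175, 0.288 and 0.328. Spc25 was the 1 of the 36 genes called with the high-Xist term, at 0.48 (edgeR adjusted p = 0.0261).

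DNA replication genes went the same way: 29 of 34 were higher and 0 lower, beside 4.43% higher among all genes. Their median fold was 0.299. Their summed level was 1432, 1551 and 1491 CPM in untreated Nrf2 -/- libraries, against 1199 and 1211 CPM in untreated WT libraries. It was 1445, 1227 and 1439 CPM with IFN-γ in Nrf2 -/- libraries, against 1261 and 1063 CPM in WT libraries. It was 1333, 1247 and 1423 CPM with thapsigargin in Nrf2 -/- libraries, against 1157 and 1006 CPM in WT libraries. As for the mitotic genes, the low-Xist Nrf2 -/- library overlapped WT only with IFN-γ. The median in the low-Xist comparison was 0.201, with 0 of 34 called, and with the Xist level as a covariate it was 0.148, also with 0 called.

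Mcm5, part of the MCM helicase that opens replication origins, had 57.4, 69.4 and 74.7 CPM in Nrf2 -/- libraries (lowest, median, highest), against 43.9, 52.1 and 57.3 CPM in WT libraries. The groups just failed to meet, and the fold was 0.41 ± 0.06 (SE; edgeR adjusted p = 0.000997). Gins2, a subunit of the GINS complex of the same helicase, had 7.36, 9.81 and 11.2 CPM in Nrf2 -/- libraries, against 5.93, 6.54 and 7.04 CPM in WT libraries, with no overlap and a fold of 0.53 ± 0.08 (SE; edgeR adjusted p = 0.000839). Mcm2, another helicase subunit, had a fold of 0.33 ± 0.05 (SE; edgeR adjusted p = 0.000488). Ccne2, cyclin E2, which drives entry into S phase, had a fold of 0.44 ± 0.06 (SE; edgeR adjusted p = 0.00017) with overlapping ranges, 21.8 to 32.7 CPM in Nrf2 -/- and 15.7 to 24.1 CPM in WT libraries. Ccne2 was called with the high-Xist term as well, at 0.39 (edgeR adjusted p = 0.0261). In the low-Xist comparison the folds of these 4 genes were 0.29 to 0.43 and none was called.

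Of 18 regulators of G1 and inhibitors of cyclin-dependent kinases, 5 were higher and 0 lower, beside 4.43% higher among all genes. Their median fold was 0.00139. Cyclin D1, Ccnd1, which couples growth factor signals to the cycle, had 169, 201 and 238 CPM in Nrf2 -/- libraries (lowest, median, highest) and 113, 154 and 196 CPM in WT libraries, ranges that overlapped. Its fold was 0.38 ± 0.08 (SE; edgeR adjusted p = 0.00876). The retinoblastoma relative Rbl1, a repressor partner of E2F factors, had a fold of 0.34 ± 0.07 (SE; edgeR adjusted p = 0.00722). The other 3 were the inhibitor genes Cdkn2c, Cdkn2d and Cdkn1a, so Ccnd1 was the only activator of the cycle among the 5. In the low-Xist comparison 0 of the 18 were called. Among p53 targets, 8 of 17 were higher and 0 lower, with a median of 0.10. In the low-Xist comparison their median was 0.0993, with 0 of the 18 tested there called. Aen, an apoptosis nuclease, was at 0.14 ± 0.03 (SE; edgeR adjusted p = 0.0116). Gtse1, a mitotic and p53-linked gene, was at 0.36 ± 0.10 (SE; edgeR adjusted p = 0.0301), a call lost in 7 of the 15 runs that each left out 1 library.

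**Figure D2:**
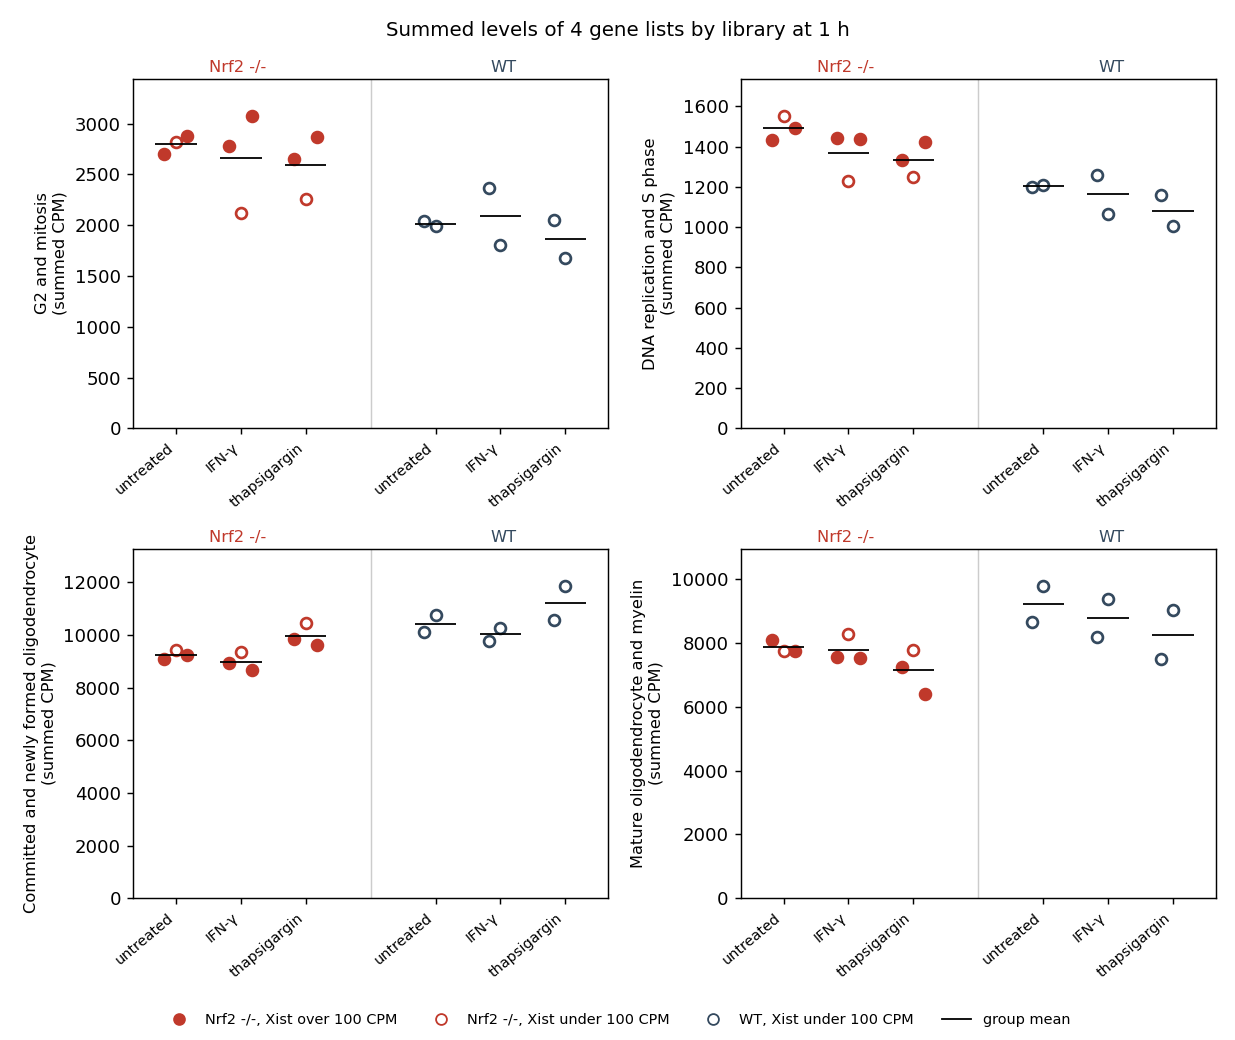
Summed CPM of 4 gene lists by genotype and treatment, with 1 point per library, filled where Xist was over 100 CPM, and a line at each group mean. The G2 and mitosis sum is 2121 to 3074 CPM in Nrf2 -/- libraries and 1677 to 2369 CPM in WT libraries, and the myelin sum is 6408 to 8269 CPM in Nrf2 -/- libraries and 7488 to 9774 CPM in WT libraries.

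The promoters of 2 of these genes are shown because they hold the short motifs through which mitotic and S-phase genes are classically timed: the cell-cycle homology region, TTTGAA, and the E2F site, searched as TTTNNCGC. Both strands of the 250 bases before each RefSeq transcript start (GRCm38.p6) were searched. TTTGAA was in 33.3% of 33 windows of G2 and mitosis genes (31 of 36 genes matched) and in 16% of all 32851 windows. TTTNNCGC was in 27.3% of 33 windows of replication genes (28 of 34 genes matched) and in 4.28% of all windows. A match is a description of the letters and not evidence of binding. Of the replication and mitosis genes described above, those with a window and no match were Spc25, Ttk and Birc5 for TTTGAA and Mcm2 for TTTNNCGC. The window of Ckap2 (chr8:22185820-22186069, minus strand) has 1 TTTGAA, in capitals, 101 bases before the start. The window of Mcm5 (chr8:75109259-75109508, plus strand) has 2 overlapping TTTNNCGC matches, 1 on each strand, in capitals, 153 and 149 bases before the start.
Ckap2: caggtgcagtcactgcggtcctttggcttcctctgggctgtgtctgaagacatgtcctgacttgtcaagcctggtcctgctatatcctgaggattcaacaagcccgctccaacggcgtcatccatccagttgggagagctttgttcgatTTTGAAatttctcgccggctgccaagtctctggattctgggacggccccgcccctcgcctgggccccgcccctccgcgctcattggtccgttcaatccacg
Mcm5: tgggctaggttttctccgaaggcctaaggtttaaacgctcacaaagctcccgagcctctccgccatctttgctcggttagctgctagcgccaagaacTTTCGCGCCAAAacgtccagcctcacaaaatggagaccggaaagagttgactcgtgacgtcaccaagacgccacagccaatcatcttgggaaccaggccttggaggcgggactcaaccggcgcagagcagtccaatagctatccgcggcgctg

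Genes of the cell type that was forming were lower. Of 20 genes of committed and newly formed oligodendrocytes, 14 were lower and 1 higher in Nrf2 -/- cells, beside 5.63% lower among all genes, and their median fold was -0.19. Their summed level was 9069, 9408 and 9218 CPM in untreated Nrf2 -/- libraries, against 10100 and 10760 CPM in untreated WT libraries. It was 8914, 9332 and 8669 CPM with IFN-γ in Nrf2 -/- libraries, against 9775 and 10270 CPM in WT libraries. It was 9831, 10440 and 9630 CPM with thapsigargin in Nrf2 -/- libraries, against 10570 and 11850 CPM in WT libraries. Within each treatment every Nrf2 -/- library lay below both WT libraries, the low-Xist ones included. Bcas1 and Gpr17, which averaged 3613 and 1990 CPM over the 15 libraries, weigh most in these sums. The median was -0.15 in the low-Xist comparison and -0.09 with the Xist level as a covariate, with 0 of 20 called in either. With counts summed per replicate number 5 were lower and 1 higher. Under library totals 8 were lower and 1 higher, and in the model of all 50 libraries 4 were lower and 1 higher. Leaving out the second WT library of the untreated, thapsigargin or IFN-γ group left 8, 7 and 8 genes lower.

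Tcf7l2, a Wnt-pathway transcription factor that marks newly formed oligodendrocytes, had 40.5, 48.6 and 54.9 CPM in Nrf2 -/- libraries (lowest, median, highest), against 50.4, 62.0 and 70.4 CPM in WT libraries. The ranges overlapped, and the fold was -0.38 ± 0.07 (SE; edgeR adjusted p = 0.00327). Nkx6-2, a homeodomain factor of the oligodendrocyte lineage, had a fold of -0.46 ± 0.09 (SE; edgeR adjusted p = 0.00491). Vcan was the 1 gene of the list that was higher. It encodes versican, a matrix proteoglycan that progenitors also make, and had a median of 175 CPM in Nrf2 -/- and 144 CPM in WT libraries, without overlap, and a fold of 0.26 ± 0.04 (SE; edgeR adjusted p = 0.00108).

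Of 28 measured genes of myelin and mature oligodendrocytes, 7 were lower and 1 higher, beside 5.63% lower and 4.43% higher among all genes. Their median fold of -0.16 became -0.10, with 3 lower and 2 higher, under library totals. Their summed level was 8093, 7748 and 7733 CPM in untreated Nrf2 -/- libraries, against 8663 and 9774 CPM in untreated WT libraries. With IFN-γ it was 7564, 8269 and 7518 CPM in Nrf2 -/- libraries, against 8168 and 9371 CPM in WT libraries. With thapsigargin it was 7240, 7769 and 6408 CPM in Nrf2 -/- libraries, against 7488 and 9025 CPM in WT libraries. The first WT library lay within the Nrf2 -/- range under both treatments, so these sums separated the genotypes only in untreated cells. The median was -0.03 with the Xist level as a covariate, with 0 of 28 called, and -0.04 with IFN-γ libraries fitted alone, with 5 lower. Counts summed per replicate number left 4 genes lower, and leaving out the second WT library of the untreated, thapsigargin or IFN-γ group left 3, 3 and 4.

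Fa2h, which hydroxylates the fatty acids of myelin sphingolipids, was the member with the clearest separation. It had 16.7, 20.1 and 23.2 CPM in Nrf2 -/- libraries (lowest, median, highest), against 24.1, 27.3 and 34.8 CPM in WT libraries. The groups did not overlap, and the fold was -0.50 ± 0.07 (SE; edgeR adjusted p = 0.000801), with -0.43 in the low-Xist comparison (edgeR adjusted p = 0.249). Myrf, the transcription factor that switches on myelin genes, had 171, 210 and 248 CPM in Nrf2 -/- libraries, against 232, 258 and 275 CPM in WT libraries. These ranges overlapped, and its fold was -0.32 ± 0.06 (SE; edgeR adjusted p = 0.00338). Nfasc, a cell adhesion protein of the paranode, was at -0.35 ± 0.07 (SE; edgeR adjusted p = 0.00958).

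Progenitor genes did not share a direction, with 3 of 20 higher, 2 lower and a median of 0.03. The shares over all genes, for this list and the next ones, were 4.43% higher and 5.63% lower. Sox2, a factor of neural progenitors, was lower (-0.19 ± 0.04 SE, edgeR adjusted p = 0.0088) and Cspg5, a chondroitin sulfate proteoglycan, higher (0.14 ± 0.04 SE, edgeR adjusted p = 0.03). Among inhibitors of differentiation, 3 of 17 were lower and 0 higher, all of them Id genes, whose products block bHLH factors such as OLIG2. Id3 had a fold of -0.32 ± 0.08, Id1 of -0.47 ± 0.15 and Id4 of -0.38 ± 0.12 (SE; edgeR adjusted p = 0.0256, 0.0413 and 0.0428). Id3, Id1 and Id4 lost their calls in 4, 9 and 12 of the 15 runs that each left out 1 library, and none was called in the low-Xist comparison. In cholesterol synthesis, which supplies the myelin membrane, 4 of 24 genes were lower and 0 higher, with a median of -0.09. The sterol enzymes Lss and Dhcr7 were at -0.19 ± 0.05 and -0.18 ± 0.04 (SE; edgeR adjusted p = 0.0269 and 0.00911), and Lss lost its call in 7 of 15 such runs and Dhcr7 in 0.

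**Figure D3:**
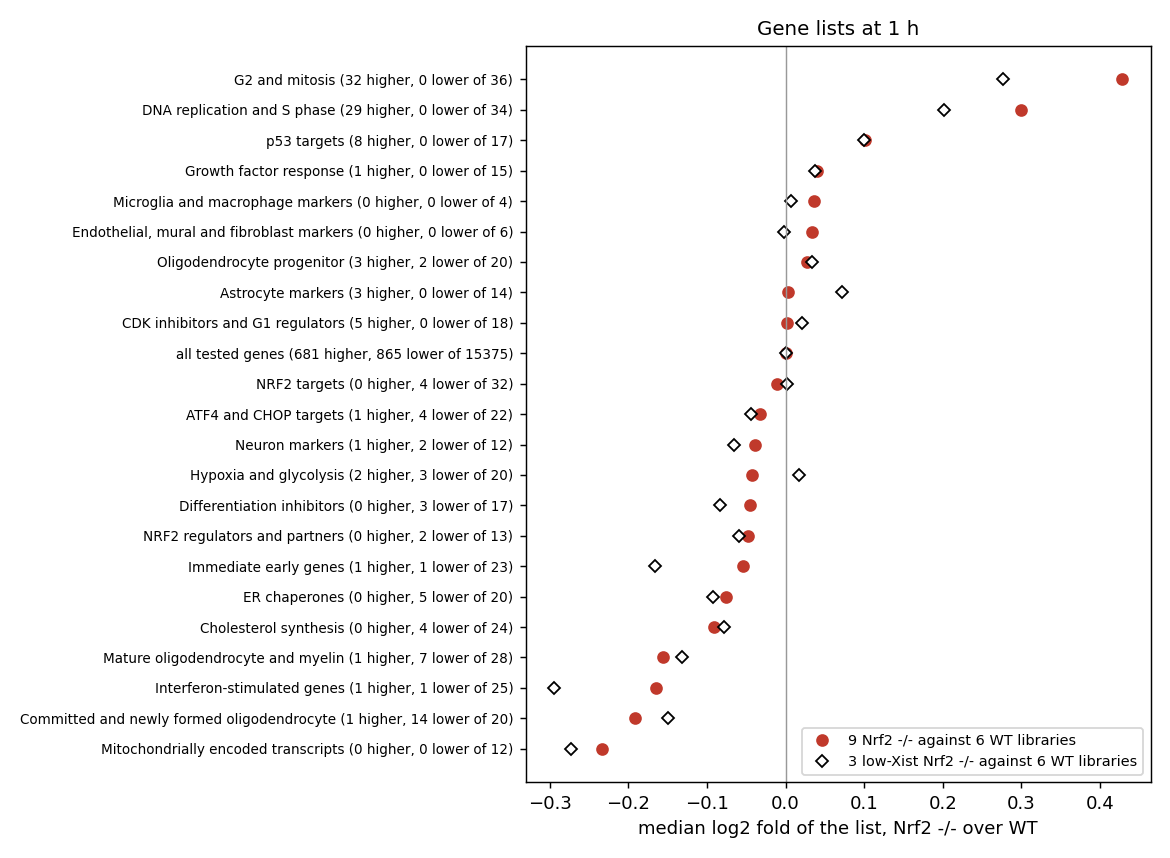
Median log2 fold of each gene list at 1 h, Nrf2 -/- over WT, for all 15 libraries (filled circles) and for the 3 low-Xist Nrf2 -/- libraries against the 6 WT libraries (open diamonds), with the counts of called genes beside each name. The G2 and mitosis list is at 0.428 and 0.277, the replication list at 0.299 and 0.201, and NRF2 targets are near 0 in both.

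NRF2's own targets differed little at this hour. Of 40 on the list, 32 were measured, 0 were higher and 4 lower, beside 5.63% lower among all genes. Their median fold was -0.01, and it was 0.00 in the low-Xist comparison and 0.05, with 2 higher and 0 lower, under library totals. Their summed level was 2686, 2995 and 3121 CPM in Nrf2 -/- libraries (lowest, median, highest), against 2710, 2999 and 3205 CPM in WT libraries, so the groups overlapped almost entirely.

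The 4 called targets were Sqstm1, the autophagy receptor p62, at -0.16 ± 0.03; G6pdx, which opens the NADPH-making pentose phosphate pathway, at -0.14 ± 0.04; Abcc4, an efflux transporter, at -0.20 ± 0.06; and Cat, catalase, at -0.09 ± 0.03 (SE; edgeR adjusted p = 0.00601, 0.0369, 0.038 and 0.0473). Sqstm1 had 144, 155 and 165 CPM in Nrf2 -/- libraries (lowest, median, highest), against 162, 175 and 182 CPM in WT libraries, which overlapped slightly. None of the 4 was called in the low-Xist comparison, where their folds were -0.13 to -0.08. G6pdx, Abcc4 and Cat lost their calls in 7, 10 and 12 of the 15 runs that each left out 1 library, and Sqstm1 in 0.

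The targets most used to read NRF2 activity were not called. Txnrd1, thioredoxin reductase, had 287, 306 and 325 CPM in Nrf2 -/- libraries (lowest, median, highest), against 275, 314 and 331 CPM in WT libraries, and the 95% interval of its fold ran from -0.06 to 0.05. Both subunits of the enzyme that starts glutathione synthesis were close to 0, with intervals of -0.09 to 0.05 for Gclc and -0.12 to 0.04 for Gclm. Hmox1, heme oxygenase 1, had an interval of -0.20 to 0.09 and Srxn1, sulfiredoxin, one of -0.16 to 0.08. Nqo1, a quinone reductase, was near the limit of detection, at 0.228 to 0.62 CPM in Nrf2 -/- and 0.188 to 0.504 CPM in WT libraries, and its interval of -0.22 to 0.84 leaves a wide range. The cystine transporter gene Slc7a11 was as low, with an interval of -0.48 to 0.66. The antioxidant response element core, TGACNNNGC, was in 22% of 41 promoter windows of the listed targets (32 of 40 genes matched) and in 10.2% of all windows.

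Of 13 measured regulators and partners of NRF2, 2 were lower and 0 higher, beside 5.63% lower and 4.43% higher among all genes. The 2 were Nfe2l3, a CNC-family relative of NRF2, at -0.41 ± 0.10, and Gsk3b, a kinase that marks NRF2 for degradation, at -0.26 ± 0.06 (SE; edgeR adjusted p = 0.0194 and 0.0156).

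Among called genes with a mean of 1 CPM or more and one direction in all 3 treatments, the highest folds were led by Xist, at 7.34 ± 1.56 (SE; edgeR adjusted p = 0.0143). Its fold was 1.65 with the high-Xist term (edgeR adjusted p = 0.243), a fall fixed in advance because that term is set by Xist itself. Next was Scn3a, a voltage-gated sodium channel gene 10.1 Mb from Nfe2l2. It had 53.1, 56.5 and 63.1 CPM in Nrf2 -/- libraries (lowest, median, highest), against 16.1, 25.5 and 35.9 CPM in WT libraries. The groups did not overlap, but WT replicate 1 of each treatment was at 16.1 to 18.4 CPM and WT replicate 2 at 32.5 to 35.9 CPM. Its fold was 1.16 ± 0.19 (SE; edgeR adjusted p = 0.00472) and 1.11 in the low-Xist comparison (edgeR adjusted p = 0.342). Ly75, an endocytic receptor gene 15.3 Mb from Nfe2l2, had 1.65 to 3.16 CPM in Nrf2 -/- libraries, against 1.07 to 1.44 CPM in WT libraries, without overlap, and a fold of 0.87 ± 0.14 (SE; edgeR adjusted p = 0.000907).

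Other genes with high folds were 2 clustered protocadherins, Pcdha8 and Pcdha2, whose shared 3' exons make the counting of single members uncertain, at 0.83 ± 0.19 and 0.80 ± 0.16 (SE; edgeR adjusted p = 0.0106 and 0.00472). Tnfaip8, an apoptosis regulator, was at 0.68 ± 0.13, the predicted gene Gm42851 at 0.68 ± 0.18, Ccdc141 at 0.66 ± 0.12 and the GTPase-activating protein gene Arhgap18 at 0.65 ± 0.12 (SE; edgeR adjusted p = 0.0068, 0.0182, 0.0022 and 0.00262). The groups overlapped for all 6.

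By the same rule, the lowest fold after Nfe2l2 was that of Cd9, a tetraspanin, at -1.08 ± 0.29 (SE; edgeR adjusted p = 0.0399). It had 73.9, 102 and 197 CPM in Nrf2 -/- libraries (lowest, median, highest), against 120, 216 and 352 CPM in WT libraries, with wide overlap, and it lost its call in 11 of 15 runs without 1 library. The same holds for Cpe, carboxypeptidase E, at -0.72 ± 0.21 (SE; edgeR adjusted p = 0.0492). Cers6, a ceramide synthase gene 6.56 Mb from Nfe2l2, was steadier. It had 14.1, 17.2 and 19.7 CPM in Nrf2 -/- libraries, against 24.1, 26.2 and 33.1 CPM in WT libraries, without overlap. Its fold was -0.67 ± 0.07 (SE; edgeR adjusted p = 0.000152), and it was called with the high-Xist term at -0.62 (edgeR adjusted p = 0.0238). The others were the ribosomal protein gene Rps16, whose pseudogene copies make its count uncertain, the transcription factor gene Foxo6, the protease gene Ufsp1, the predicted gene Gm10052, the cholesterol esterification gene Lcat and the innate immune adaptor gene Myd88. Their folds were -0.84, -0.79, -0.75, -0.75, -0.67 and -0.64, with overlap between the groups for each.

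**Figure D4:**
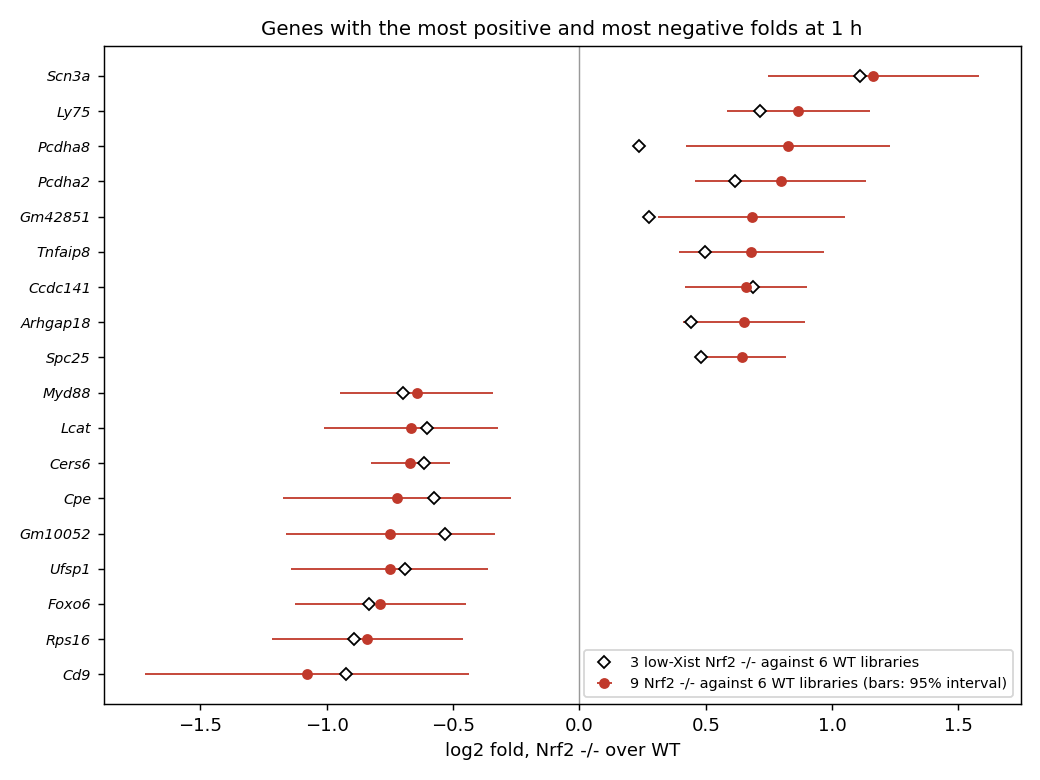
Log2 folds, Nrf2 -/- over WT, of the genes with the most positive and most negative folds among called genes with a mean of 1 CPM or more and one direction in all 3 treatments, with Xist and Nfe2l2 left off for scale. Circles with 95% intervals use all 15 libraries and open diamonds the 3 low-Xist Nrf2 -/- libraries against the 6 WT libraries. Pcdha8 and Gm42851 move most between the fits, to 0.24 and 0.27.

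The share of genes called was highest near Nfe2l2 among the 4 parts of the genome compared, a difference between shares that was not tested. Within 20 Mb of Nfe2l2, and without counting it, 30 of 192 tested genes (15.6%) were called, against 110 of 1006 (10.9%) on the rest of chromosome 2, 1357 of 13563 (10%) on other autosomes and 47 of 553 (8.5%) on X. With the high-Xist term 4 of the 192 neighbours were called, namely Spc25, Cers6, Cobll1 and Mettl8, against 12 of 13563 genes on other autosomes. In the low-Xist comparison 0 neighbours were called, against 5 genes on other autosomes. The part that variants inherited with the mutant allele have in these calls was not tested.

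Cobll1, an actin-linked gene 10.4 Mb away, had 30.1, 31.9 and 34.6 CPM in Nrf2 -/- libraries (lowest, median, highest), against 37.5, 42.9 and 51.3 CPM in WT libraries, without overlap. Its fold was -0.46 ± 0.06 (SE; edgeR adjusted p = 0.00017). Mettl8, an RNA methyltransferase gene 4.62 Mb away, was at 0.33 ± 0.05 (SE; edgeR adjusted p = 0.00068), and at 0.40 with the high-Xist term (edgeR adjusted p = 0.00898). It was also higher at 8 h (0.38 ± 0.05 SE, edgeR adjusted p = 0.000262) and at 48 h (0.46 ± 0.07 SE, edgeR adjusted p = 0.000221). The closest tested neighbour that was called, Hnrnpa3, an RNA-binding protein gene 0.00611 Mb away, was at -0.48 ± 0.11 (SE; edgeR adjusted p = 0.0174) with overlapping groups.

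Within single treatments, with 3 against 2 libraries, calls were fewer. In untreated cells 1 gene was called (0.0065%), Nfe2l2, with 1697 genes under an unadjusted p of 0.05. With IFN-γ 143 genes were called (0.93%), 25 higher (0.163%) and 118 lower (0.767%), and with thapsigargin 113 (0.735%), 30 higher (0.195%) and 83 lower (0.54%). Beside Nfe2l2, the IFN-γ genes with the smallest p included Cers6, at 16.6, 16.6 and 16.3 CPM in Nrf2 -/- libraries against 33.1 and 26.5 CPM in WT libraries. Lats1, a Hippo pathway kinase gene, had 85.5, 86.1 and 84.7 CPM in Nrf2 -/- libraries, against 116 and 114 CPM in WT libraries. Their folds with IFN-γ were -0.86 ± 0.12 and -0.43 ± 0.06 (SE; edgeR adjusted p = 0.00816 and 0.00805). Among the genes with the smallest p with thapsigargin, Tnr, a matrix glycoprotein of oligodendrocytes, had 1096, 1017 and 1055 CPM in Nrf2 -/- libraries, against 1546 and 1406 CPM in WT libraries. Its fold was -0.48 ± 0.06 (SE; edgeR adjusted p = 0.000395), and Arid1a, a chromatin remodeller subunit gene, was at -0.64 ± 0.09 (SE; edgeR adjusted p = 0.00149). Without the first WT library of the treatment, 1 call was left with IFN-γ and 15 with thapsigargin, and without the high-Xist libraries 2 were left in each treatment.

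The median folds of the cell-cycle lists were alike in the 3 treatments although calls of single genes there depended on the fit. For G2 and mitosis they were 0.453 in untreated cells, 0.343 with IFN-γ and 0.497 with thapsigargin, and for replication genes 0.327, 0.252 and 0.294. In the joint model of the 6 groups none of the mitotic genes was called within a treatment, and 1 replication gene was called with thapsigargin. With each treatment's libraries fitted alone, untreated cells had 159 calls, 150 of them higher in Nrf2 -/- cells, with 29 of the 36 mitotic and 14 of the 34 replication genes among those. Thapsigargin-treated cells fitted alone had 11 mitotic genes and 1 replication gene higher, and IFN-γ-treated cells 0 and 2. The interferon-stimulated genes had a median of -0.38 with IFN-γ, -0.02 in untreated cells and -0.10 with thapsigargin, and 0 of 25 were called in any of the 3.

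The tests of whether the response to a treatment differed between genotypes gave few calls. The F test over both responses called 9 genes (0.0585%, 942 under an unadjusted p of 0.05), the IFN-γ response differed for 1 gene (0.0065%) and the thapsigargin response for 12 (0.078%), each lower in Nrf2 -/- cells. Several encode large regulators of transcription. Trrap, a scaffold of histone acetyltransferase complexes, had 111, 97.7 and 102 CPM in thapsigargin-treated Nrf2 -/- libraries and 126, 127 and 135 CPM in untreated ones, against 137 and 128 CPM in thapsigargin-treated WT libraries and 112 and 115 CPM in untreated ones. With IFN-γ it had 110, 110 and 106 CPM in Nrf2 -/- libraries, against 145 and 134 CPM in WT libraries. Both treatments thus went with a lower level in Nrf2 -/- cells and a higher one in WT cells, and the response differed by -0.54 ± 0.08 for each treatment (SE; edgeR adjusted p = 0.0374 for IFN-γ and 0.0167 for thapsigargin).

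Ncoa6, a nuclear receptor coactivator gene, had 27.9, 22.4 and 25.02 CPM with thapsigargin and 28.5, 31.1 and 31.1 CPM untreated in Nrf2 -/- libraries, against 40.3 and 32.2 CPM with thapsigargin and 22.7 and 25.9 CPM untreated in WT libraries. Its thapsigargin response differed by -0.84 ± 0.13 (SE; edgeR adjusted p = 0.0167). The differences were -0.66 ± 0.11 for Polr2a, the large subunit of RNA polymerase II, -0.56 ± 0.08 for Tnr, -0.60 ± 0.10 for the RAS activator Sos1 and -0.51 ± 0.09 for the coactivator Crebbp (SE; edgeR adjusted p = 0.0167, 0.0167, 0.0192 and 0.0227). These calls depended on single libraries. Without untreated WT replicate 1, 0 were left for either response, and without thapsigargin-treated Nrf2 -/- replicate 2 or thapsigargin-treated WT replicate 1, 0 were left for thapsigargin. Without untreated Nrf2 -/- replicate 2 there were 3 thapsigargin calls, without replicate 3 of the untreated or the thapsigargin-treated Nrf2 -/- group 6 each, and without thapsigargin-treated WT replicate 2 there were 40. The IFN-γ calls numbered 12 without untreated Nrf2 -/- replicate 1 and 18 without untreated WT replicate 2, and 0 to 4 without any other single library. Without the high-Xist libraries 0 were left for either response.

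The genotype difference at 1 h was then set beside that at later hours in a model of all 50 libraries. Over untreated and IFN-γ libraries, no gene differed between 1 h and the average of the later hours (0 of 16460, 0%, in edgeR, with 1938 under an unadjusted p of 0.05). Thapsigargin was left out of that contrast because it has no libraries at 24 and 48 h. Fewer genes were called at the later hours: 4 at 8 h (0.0243%), 6 at 24 h (0.0365%) and 22 at 48 h (0.134%), with 50 for their average (0.304%), against 612 at 1 h in the same model. The numbers of libraries were the same at 8 h as at 1 h, 9 Nrf2 -/- and 6 WT, and lower at 24 and 48 h, 6 Nrf2 -/- and 4 WT. The genotype labels are less certain at 8 h, where 3 Nrf2 -/- libraries carry conflicting ones and 1 other had a WT-like Nfe2l2 level. Without the 3, 2 genes were called at 8 h, and the part of the other in that count was not tested. The change in any gene's fold was not called. High-Xist libraries were 6 of 9 Nrf2 -/- libraries at 8 h and 4 of 6 at both 24 and 48 h, against 0 of 6, 0 of 4 and 0 of 4 WT libraries.

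The median fold of G2 and mitosis genes was 0.428 at 1 h, 0.301 at 8 h, 0.124 at 24 h and -0.03 at 48 h, and that of replication genes 0.299, 0.124, 0.10 and -0.05. Spc25 was the gene of these lists called at a later hour, at 8 h (0.50 ± 0.10 SE, edgeR adjusted p = 0.0421). Genes of committed and newly formed oligodendrocytes were at -0.19 at 1 h, -0.03 at 8 h, 0.02 at 24 h and 0.10 at 48 h, and 0 of 20 were called after 1 h. The median of myelin genes stayed below 0 at each hour, at -0.16, -0.10, -0.14 and -0.06, and that of NRF2 targets between -0.07 and -0.01. Of 30 tested myelin genes, 1 was called lower at 24 h and 1 at 48 h. Nfe2l2 itself was at -4.03 ± 0.37 at 8 h, -6.26 ± 0.49 at 24 h and -6.41 ± 0.45 at 48 h (SE; edgeR adjusted p = 1.04e-07, 1.42e-09 and 1.16e-10). At 8 h, 1 library labelled Nrf2 -/- had a WT-like Nfe2l2 level and 3 others carry conflicting genotype labels. Ly75 was called at 8 h as well as at 1 h, with 1.07 ± 0.18 (SE; edgeR adjusted p = 0.00333).

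**Figure D5:**
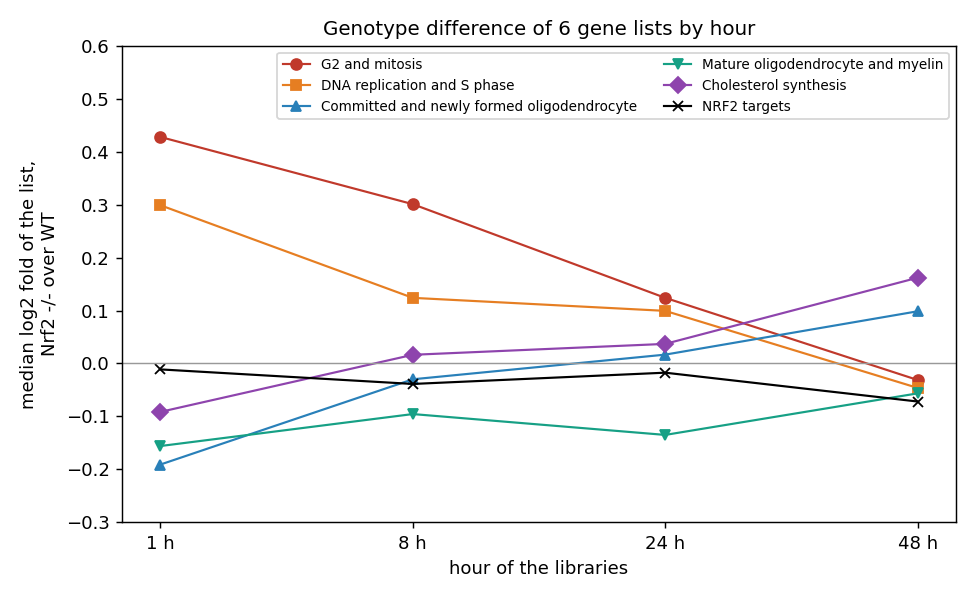
Median log2 fold, Nrf2 -/- over WT, of 6 gene lists at 1, 8, 24 and 48 h, each point over the measured genes of the list, with 1 h from the model of 15 libraries and later hours from the model of 50. Thapsigargin-treated libraries enter at 1 and 8 h only. The G2 and mitosis list is at 0.428 at 1 h and -0.03 at 48 h. No gene was called between 1 h and the average of later hours over untreated and IFN-γ cells.

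Other lists had between 0 and 5 genes called in a direction, and 4.43% of all genes were higher and 5.63% lower. Of 23 measured immediate early genes 1 was higher, Btg2, and 1 lower, Nr4a3. Among interferon-stimulated genes, 1 of 25 was higher, Ifit2 at 0.35 ± 0.07 (SE; edgeR adjusted p = 0.00279), and 1 lower, Mx2 at -0.17 ± 0.04 (SE; edgeR adjusted p = 0.0217). Chaperones of the endoplasmic reticulum had 5 of 20 lower and 0 higher, a larger share than among all genes that was not tested, with a median fold of -0.08, and 0 of 20 were called in the low-Xist comparison. The smallest p was that of the calcium-binding chaperone gene of calreticulin, Calr, at -0.15 ± 0.03 (SE; edgeR adjusted p = 0.00345). Targets of the stress factor ATF4 had 4 of 22 lower, again a larger share than among all genes, and 1 higher, with a median of -0.03; Ddit4, an inhibitor of mTORC1, was at -0.37 ± 0.08 (SE; edgeR adjusted p = 0.00914), and the higher one was Phgdh, of serine synthesis, at 0.18 ± 0.04 (SE; edgeR adjusted p = 0.0127). Growth factor response genes had 1 of 15 higher, Ccnd1 again. Hypoxia and glycolysis genes had 2 of 20 higher, Aldoc and Eno1, and 3 lower, and 0 of 12 mitochondrially encoded transcripts were called.

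The summed levels of markers of other cell types overlapped between the genotypes over all treatments, but not within each one. Astrocyte markers summed to 410 to 495 CPM in Nrf2 -/- libraries and 403 to 487 CPM in WT libraries, with Gjb6 at 0 in every library. Microglia markers summed to 20.5 to 28.01 CPM in Nrf2 -/- and 19.7 to 27.2 CPM in WT libraries, with Tmem119, Aif1, C1qa, C1qb, C1qc and Tyrobp at 0. Endothelial, mural and fibroblast markers summed to 3.96 to 7.15 CPM in Nrf2 -/- and 3.68 to 5.76 CPM in WT libraries, with Cldn5 at 0. Neuron markers summed to 1936 to 2095 CPM in Nrf2 -/- and 1906 to 2107 CPM in WT libraries, with Slc17a6 at 0, and Map2 alone averaged 1529 CPM. Within treatments, astrocyte sums with IFN-γ were 470, 495 and 464 CPM in Nrf2 -/- libraries, against 431 and 454 CPM in WT libraries. Microglia sums with thapsigargin were 24.6, 20.5 and 21.9 CPM in Nrf2 -/- libraries, against 19.7 and 20.2 CPM in WT libraries. Endothelial, mural and fibroblast sums in untreated cells were 4.08, 5.29 and 4.82 CPM in Nrf2 -/- libraries, against 3.68 and 3.69 CPM in WT libraries. These were higher in every Nrf2 -/- library, the other sums overlapped within each treatment, and their part in the results was not tested. Called markers were 3 of 14 astrocyte genes, all higher (Slc1a3, Aldoc and Acsbg1), and 3 of 12 neuron genes, with Nefl higher and Tubb3 and Elavl3 lower. The shares over all genes were 4.43% higher and 5.63% lower.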

How the data were processed

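Gene-level read counts were read from the deposited gene table, as whole numbers with no rescaling; per the submitters' processing notes, the authors aligned reads with STAR and counted them with featureCounts. The isoform table deposited beside it holds estimated counts from kallisto, per the same notes, which were summed per gene for 1 alternative and read directly for the Nfe2l2 transcripts only. No source used here gives the genome build, annotation, strand setting or tool versions. Without the version part of the identifiers, 38872 of 39056 entries matched GENCODE M21 (GRCm38), which gave symbols and positions. The number of table columns that belong to no sample was 0.

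Genotype, treatment and hour came from the labels, and replicates were numbered within each group in library order. Genes were kept by filterByExpr (at least 10 counts, 15 in total), scaled by TMM and fitted with edgeR 4.0.16 (quasi-likelihood, robust, R 4.3.3): treatment plus genotype in the 15 libraries at 1 h, a mean per group for within-treatment and interaction tests, and a mean for each of the series' groups in all 50 libraries for later hours. P-values were adjusted by Benjamini-Hochberg over every gene tested. The common dispersion was 0.00582. CPM were computed with TMM library sizes. The code was tested on simulated counts with known changes. Library totals were 33003667 to 37257674 counts, which bounds counting error only.

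Named genes are Nfe2l2 and 7 NRF2 targets, the 10 highest and 10 lowest called folds (mean of 1 CPM or more, one direction in all treatments), called genes within 20 Mb of Nfe2l2, up to 4 called genes per list and up to 5 per other comparison; a gene that the rule names is not reported here. The members, the 23 gene lists and the tests were chosen with earlier results of these data known, so the counts describe them and give no independent support. The high-Xist term (over 100 CPM) and the fits without high-Xist libraries were added after seeing the data. Alternatives covered scaling (RLE, library totals), filters, limma 3.58.1, DESeq2 1.42.0, kallisto estimates, a replicate block, sums per replicate number, single treatments and each 1 h library left out.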

Additional observations from a re-analysis of the deposited data

Results flagged for a closer look

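In 5 of 290 groups of values tested, 1 library lay far from the others. Each group pooled the 3 treatments of 1 genotype. The test's rate of about 1 in 20 by chance holds for values of one kind, so the 5 cannot be read against it. Phlda3, a p53 target, was at 28.07 CPM in thapsigargin-treated Nrf2 -/- replicate 3, above all other Nrf2 -/- libraries, and at 23.58 CPM in thapsigargin-treated WT replicate 1, above the other WT libraries. Gtse1 was at 12.14 CPM in IFN-γ-treated Nrf2 -/- replicate 2, the lowest of that genotype and a low-Xist library. Slc1a3, a glutamate transporter gene, was at 29.89 CPM in thapsigargin-treated Nrf2 -/- replicate 3. Elavl3, a neuronal RNA-binding protein gene, was at 102.1 CPM in untreated Nrf2 -/- replicate 3, the lowest of that genotype.

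The response to a treatment differed between genotypes, Nrf2 -/- minus WT on the log2 scale in the edgeR interaction test, for 8 named genes. For thapsigargin the differences were -0.51 for Igsf10, -0.56 for Tnr, -0.50 for Soga1, -0.54 for Trrap, -0.66 for Polr2a, -0.84 for Ncoa6, -0.60 for Sos1 and -0.51 for Crebbp. For IFN-γ the difference was -0.54 for Trrap. In untreated cells all 8 were level or higher in Nrf2 -/- libraries, with folds of 0.04 to 0.32, and in thapsigargin-treated cells all 8 were lower, with folds of -0.35 or below. Both untreated WT libraries enter each of these differences, and none was called without untreated WT replicate 1.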

How the results depend on the processing

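The count of genes called across treatments at 1 h, 1546, was within 1.5 times of itself with RLE scaling (1540), library totals (1344), no filter (2245), kallisto estimates (1529), DESeq2 (2083) and limma with the replicate number as a block (1258). It was 612 in the 50-library model, 787 with counts summed per replicate number, 17 with the high-Xist term, 8 with the Xist level as covariate and 6 without the high-Xist libraries. Fitted alone, untreated, IFN-γ and thapsigargin libraries gave 159, 749 and 162. Without the high-Xist libraries each treatment had 2 calls within the joint model, and the IFN-γ response, the thapsigargin response and the F test had 0; DESeq2's likelihood ratio test called 41 in place of 9. At 8 h 2 genes were called without the libraries whose labels conflict.

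With each 1 h library left out in turn, the count across treatments ran from 694 to 1953. Within treatments it ran from 1 to 4 untreated, 1 to 414 with IFN-γ and 15 to 180 with thapsigargin. The response differences ran from 0 to 18 for IFN-γ, 0 to 40 for thapsigargin and 0 to 19 for the F test. The difference between 1 h and later hours was not refitted in these runs. It was refitted without 1 single library, untreated Nrf2 -/- replicate 3 at 8 h, and stayed at 0. Where 1 WT library of a treatment was left, it was assumed to vary like the other groups. The causes were not tested.

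The numbers that pair replicates follow library order, and the labels do not say what they mark. Sex-linked levels went with the number in all 3 treatments. Ddx3y was at 0.028 to 0.112 CPM in Nrf2 -/- replicate 1 and at 1.07 to 1.48 CPM in replicate 3. In WT cells Xist was at 2.995 to 5.12 CPM in replicate 1 and at 0.374 to 0.537 CPM in replicate 2. The main fit takes the 15 libraries as independent, and whether same-numbered ones share a culture was not tested. The deviations of same-numbered Nrf2 -/- libraries correlated at 0.03 to 0.30 (median 0.164, n = 9 pairs). Those of differently numbered ones correlated at -0.23 to 0.09 (median -0.099, n = 18 pairs). Deviations were taken from each group's mean, which ties the 2 sets of pairs to each other. Same-numbered libraries across genotypes correlated at -0.04 to 0.10. The replicate block, with a consensus correlation of 0.0294, gave 550 higher and 708 lower.

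Of 3537 gene results under alternatives, 2433 kept their direction and side of the threshold, 1044 lost a call, 23 gained one and 37 changed sign, all of the last in uncalled or interaction genes. Txnrd1 was at 0.00496 in the 50-library model, 0.000177 with RLE, 0.0565 with library totals, 0.0176 with the Xist covariate, 0.00843 with the high-Xist term, 0.0119 without high-Xist libraries, 0.0578 with thapsigargin alone and 7.9e-06 in DESeq2. Srxn1 was at 0.0211, 0.0598, 0.0173 and 0.0206 with library totals, the Xist covariate, the high-Xist term and without high-Xist libraries, and at 0.00124 untreated alone and 0.00269 with IFN-γ alone. Library totals gave 0.0419 for Gclc, 0.0196 for Gclm and 0.00525 for Hmox1. Single treatments gave 0.0392 for Gclc with thapsigargin, 0.0139 for Gclm and 0.0755 for Hmox1 untreated, and -0.1214 for Slc7a11 with IFN-γ. Untreated cells alone gave 0.06 for Igsf10, 0.0819 for Tnr, 0.0446 for Soga1, 0.194 for Trrap, 0.258 for Polr2a, 0.317 for Ncoa6, 0.223 for Sos1 and 0.0894 for Crebbp. With single libraries left out, Txnrd1 ran from -0.0154 to 0.0123, Srxn1 from -0.0569 to 0.00136 and Slc7a11 from -0.042 to 0.209. Depth limits Nqo1 and Slc7a11, which are under 1 CPM.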

Other observations

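The low-Xist Nrf2 -/- libraries differed from WT in 5 genes beside Nfe2l2, of which 3 were not called over all 9 Nrf2 -/- libraries. Eps8l1, an actin-regulating adaptor gene, had a fold of -4.12 in those 3 libraries and -0.72 over all 9 (edgeR adjusted p = 0.484 over all 9). Dynlt1b, a dynein light chain gene, had folds of 0.60 and 0.26, and the pseudogene Tmem181b-ps 0.45 and 0.17. Both have close copies in the genome, so their counts are uncertain. Gng3, a G protein gamma subunit gene, had -0.52 in the low-Xist libraries and -0.59 over all 9 (edgeR adjusted p = 0.0406 and 0.000152), and Aldoc, a glycolytic aldolase gene, 0.28 and 0.19 (edgeR adjusted p = 0.0477 and 0.00287). These genes were named after their values were seen.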
